A study of Homo sapiens with 12 samples.

Results

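The genes described here encode secreted ligands of the bone morphogenetic protein (BMP) and activin families (BMP2, BMP4, BMP7, INHBA, INHBB), secreted antagonists of those ligands (FST, GREM1) and the inhibitor of DNA binding proteins that BMP signals commonly induce (ID1, ID2, ID3). They were matched by gene symbol, and all 10 of the 10 were found among the 58051 genes counted. The set and the further gene lists were chosen with earlier results of these data known. Their counts of calls beside the shares over all genes are therefore descriptions. The study compared head and neck squamous cell carcinoma (HNSCC) cell lines that had been made resistant to inhibitors of the ERBB receptor kinases with the lines they came from. FaDu is a cell line from a hypopharyngeal carcinoma and Cal27 one from a tongue carcinoma. Each was studied as parental cells, as an afatinib-resistant derivative (AfaR; afatinib inhibits several ERBB kinases) and as an erlotinib-resistant derivative (ErlR; erlotinib inhibits EGFR). All 6 groups were labelled wild type for genotype. The resistant cells had been grown under stepwise rising drug doses and kept under drug until a day before the experiments, so that resistance and long drug exposure cannot be told apart, and each derivative is 1 resistant population. The 2 lines were also grown in different media. RNA was sequenced as 2 libraries per group, 12 in all.

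BMPs and activins are dimeric ligands that bind pairs of type I and type II serine/threonine kinase receptors. BMP receptors mostly phosphorylate SMAD1, SMAD5 and SMAD9, activin receptors SMAD2 and SMAD3, and both groups of SMADs act with SMAD4. Follistatin, the product of FST, binds activins almost irreversibly, whereas gremlin, the product of GREM1, binds BMP2, BMP4 and BMP7. ID proteins lack a DNA-binding region and hold E proteins away from their E-box sites. In stratified epithelia they are linked to the undifferentiated, proliferating state.

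Between 16334937 and 23399259 counts fell on genes in each library. Levels are given as CPM (counts scaled to a common library total) after TMM normalization, which assumes that most genes do not differ, or as the same per kilobase of exon (RPKM) where genes are compared with each other. A gene is said to have risen or fallen where edgeR's quasi-likelihood test gave a Benjamini-Hochberg adjusted p under 0.05 and the change was over 1 on the log2 scale. The labels number the replicates and the study's methods call them biological, with no word on how the cultures were separated, so the p-values measure the spread between these libraries, which may be technical. All 10 squamous epithelial markers were detected in every group, and their summed level was 4641 to 5742 CPM in Cal27 parental and 1098 to 1244 CPM in Cal27 AfaR libraries, against 7242 to 14164 CPM over the FaDu libraries. Scaling by the spike-in RNAs instead of TMM moved the median of all genes by 0.18 in FaDu AfaR and by 0.49 in FaDu ErlR cells against parental cells, and by 0.62 between the parental lines (log2 scale), so changes there are relative to a median that the scaling sets.

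Promoter sequence from RefSeq (GRCh38.p14) was matched by symbol for 8 of the 10 genes, all but BMP2 and BMP7, on the build to which the reads had been aligned. Shown are the 250 bases before a start site for 4 genes whose levels separated the groups: ID1, which fell in FaDu AfaR cells, BMP4, which had the largest rise, INHBA, which separated the lines, and INHBB, which fell in Cal27 ErlR cells. Capitals mark 4 short motifs searched on both strands: GGCGCC and GTCTG, which SMAD complexes can bind, the E-box CANNTG and the TATA box TATAAA. The windows lie on chr20:31605039-31605288 (ID1, plus strand), chr14:53955051-53955300 (BMP4, minus strand, the most upstream of 3 listed starts), chr7:41703091-41703340 (INHBA, minus strand) and chr2:120345886-120346135 (INHBB, plus strand).
ID1: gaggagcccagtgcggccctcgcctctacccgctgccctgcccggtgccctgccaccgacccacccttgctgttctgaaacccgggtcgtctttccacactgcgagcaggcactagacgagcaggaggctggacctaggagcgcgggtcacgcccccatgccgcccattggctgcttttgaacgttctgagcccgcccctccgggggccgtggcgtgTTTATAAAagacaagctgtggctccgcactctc
BMP4: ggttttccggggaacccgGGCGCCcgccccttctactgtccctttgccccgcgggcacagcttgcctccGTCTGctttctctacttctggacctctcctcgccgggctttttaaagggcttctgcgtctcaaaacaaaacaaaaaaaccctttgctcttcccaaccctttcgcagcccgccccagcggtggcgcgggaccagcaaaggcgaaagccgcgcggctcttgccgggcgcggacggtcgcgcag
INHBA: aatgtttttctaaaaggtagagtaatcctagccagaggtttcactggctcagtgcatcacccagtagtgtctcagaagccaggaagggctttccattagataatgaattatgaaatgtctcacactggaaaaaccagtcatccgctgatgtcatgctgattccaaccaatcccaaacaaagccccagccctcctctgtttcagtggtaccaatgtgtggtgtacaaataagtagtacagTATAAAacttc
INHBB: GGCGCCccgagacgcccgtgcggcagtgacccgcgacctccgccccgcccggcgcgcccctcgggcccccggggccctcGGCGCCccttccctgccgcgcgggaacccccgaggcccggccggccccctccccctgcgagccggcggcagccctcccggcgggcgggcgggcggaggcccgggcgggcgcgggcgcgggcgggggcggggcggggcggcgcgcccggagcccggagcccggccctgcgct
The ID1 window held TATAAA on both strands in overlapping letters and none of the other motifs, and the INHBA window held TATAAA once. GGCGCC occurred once in the BMP4 window and 2 times in that of INHBB, and GTCTG once in the BMP4 window. The BMP4 matches depend on the start chosen. The unprinted window from 53953396 held 1 GTCTG and 1 E-box, and that from 53954489 none of the motifs. The printed BMP4 window lies inside the span of the counted gene model, which reaches 53958761. The INHBA window likewise lies inside its counted model, which reaches 41705834 and whose exons cover 18 of the 250 bases. Over 35116 promoter windows of the same length, GGCGCC was found in 16.4%, GTCTG in 38.0%, CANNTG in 61.8% and TATAAA in 10.7%. The corresponding windows of ID2 and ID3 are not printed because exons of the gene models used for counting cover 202 and 250 of their 250 bases. The ID2 window held 1 E-box, and that of ID3 1 GTCTG. A match, or the lack of one, describes these 250 bases and says nothing of binding or of sites outside them.

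Between 1 and 4 genes of the set were called in each resistant derivative. In FaDu AfaR cells BMP2 rose and ID1 and ID3 fell, which is 1 higher and 2 lower of 9 genes tested, where 6.48% of all 15092 genes tested were called higher and 0.954% lower. In FaDu ErlR cells INHBA rose and no gene of the set fell by edgeR or DESeq2, against 1.54% of all genes called higher and 0.504% lower. At an unadjusted p under 0.05, 3 genes of the set were lower there. In Cal27 AfaR cells BMP4 and ID2 rose and INHBA and FST fell, with 11.5% of 15269 genes called higher and 8.06% lower. In Cal27 ErlR cells INHBB and ID3 fell and none rose by either tool, with 3.56% called higher and 9.92% lower, and 1 gene, FST, was higher at an unadjusted p under 0.05. The median change of the 9 tested genes was -0.05, -0.24, -0.56 and -0.88 on the log2 scale in these 4 comparisons, where the median of all genes was -0.03 or nearer to 0. The AfaR and ErlR comparisons of a line share the same 2 parental libraries.

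**Figure D1:**
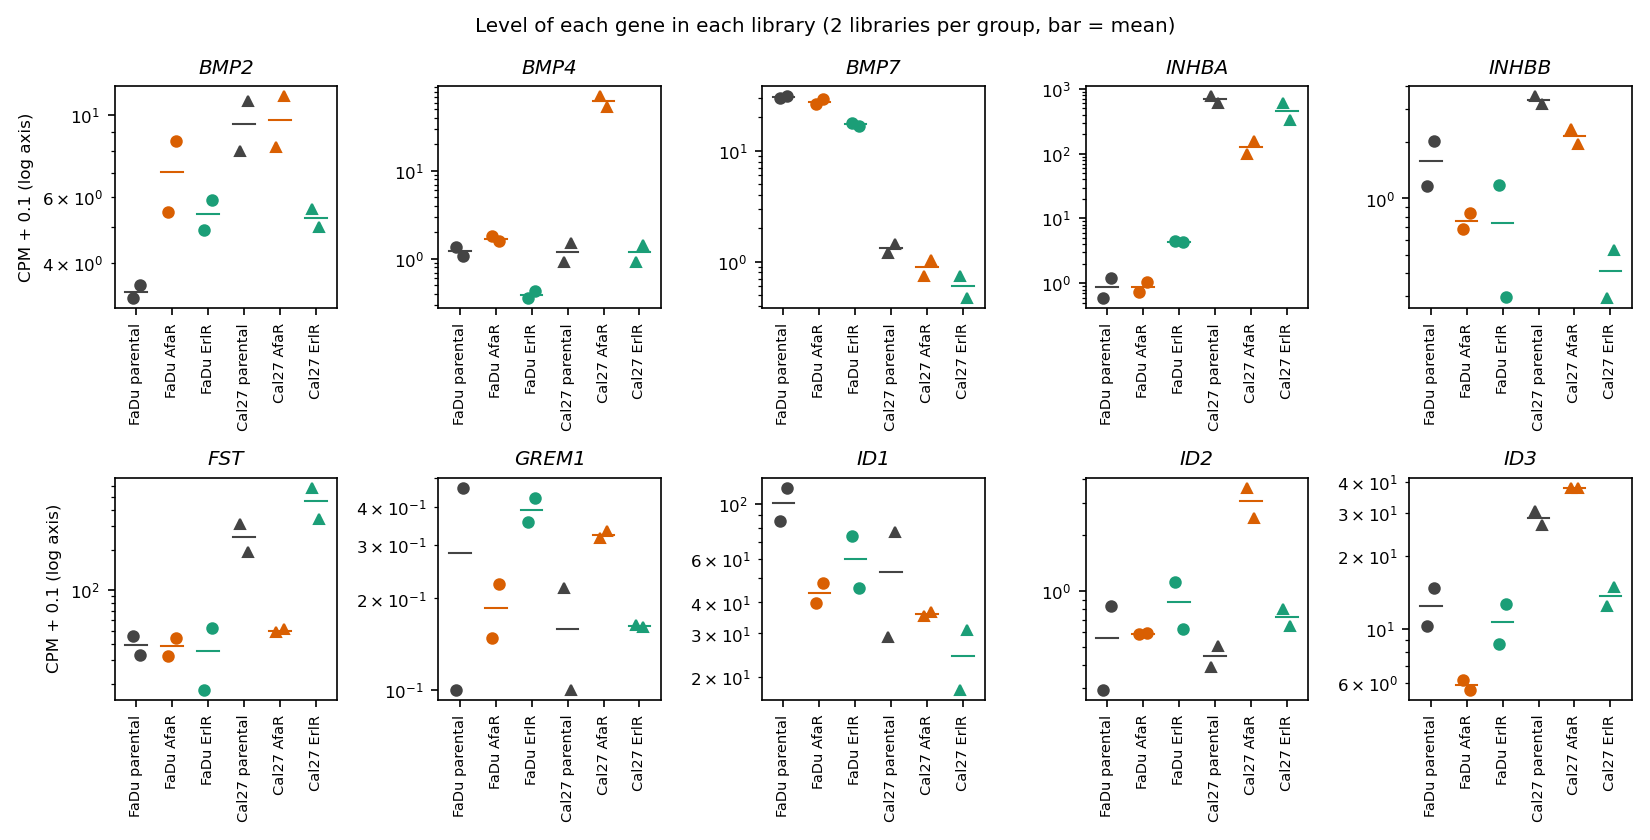
Level of each gene in each of the 12 libraries, as CPM plus 0.1 on a log axis that differs between panels; circles are FaDu and triangles Cal27 libraries, and bars are the means of the 2 libraries per group. BMP4 and ID2 stand highest in the Cal27 AfaR libraries, BMP7 in all 6 FaDu libraries, and INHBA in all 6 Cal27 libraries.

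The parental lines already differed in the levels of several ligands. Against FaDu parental cells, BMP2, INHBA, FST and ID3 were higher and BMP7 lower in Cal27 parental cells, 4 and 1 of 9 tested, where 19.1% of 16240 genes were called higher and 12.5% lower. The ID3 call was lost without FaDu parental replicate 1 (0.96), and ID1 differed by -0.93 ± 0.37, under the fold limit, but was called without Cal27 parental replicate 2 (-1.80). INHBB was called higher with spike-in scaling (1.70), no filter (1.13) or only the 4 parental libraries (1.12). INHBA separated the lines most. It encodes the activin A subunit and lies at chr7:41667168-41705834. FaDu parental libraries held 0.485 and 1.09 CPM of INHBA (10 and 21 reads), and Cal27 parental libraries 770.1 and 597.6 CPM (13228 and 10239 reads). No FaDu library came near a Cal27 library, and the difference was 9.76 ± 0.43 on the log2 scale (SE; edgeR adjusted p = 8.05e-09). Per unit length, FST (84.6 ± 28.3 RPKM; mean ± SD, n = 2), INHBA (82.4 ± 14.7 RPKM) and ID1 (42.9 ± 27.4 RPKM) led the set in Cal27 parental cells, within their spread of each other. In FaDu parental cells ID1 (81.7 ± 17.5 RPKM) led, ahead of FST (13.2 ± 3.0 RPKM) and ID3 (6.87 ± 1.73 RPKM). GREM1 was last by RPKM in all 6 groups.

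Among the BMP ligands, BMP4 showed the largest change of the set. BMP4, on chr14:53949736-53958761, encodes a ligand with broad roles in epithelial and mesenchymal patterning. Its level was 70.8 and 52.6 CPM in the Cal27 AfaR libraries, against 0.815 and 1.40 CPM in Cal27 parental and 0.830 and 1.34 CPM in Cal27 ErlR libraries. Only the AfaR libraries left the low range, and the rise was 55.4-fold (log2 5.79 ± 0.30, edgeR adjusted p = 3.21e-06). Leaving out any 1 of the 4 libraries compared gave 5.46 to 6.23. In FaDu, BMP4 was 1.26 and 0.987 CPM in parental, 1.70 and 1.48 CPM in AfaR and 0.256 and 0.327 CPM in ErlR libraries, the last resting on 4 and 5 reads. The ErlR libraries lay below both other groups, but the difference from parental cells was not called (log2 -1.94 ± 0.51, edgeR adjusted p = 0.0656) except with all 12 libraries in 1 fit (-1.93) or no filter (-1.96), whereas that between AfaR and ErlR cells was (2.41 ± 0.49, adjusted p = 0.0139).

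The AfaR change of BMP4 differed between the lines by -5.30 ± 0.44 (FaDu minus Cal27, log2 scale; edgeR adjusted p = 9.82e-06), one of 5 genes of the set for which this interaction was called, against 12.3% of all genes. For the ErlR change 3 genes of the set were called, against 10.9% of all genes.

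BMP2, on chr20:6767664-6780280, encodes a ligand best known for inducing bone. It was 3.11 and 3.38 CPM in parental FaDu libraries, 5.39 and 8.43 CPM in AfaR and 4.80 and 5.82 CPM in ErlR libraries. Both resistant groups lay above the parental one, and in AfaR cells the rise was called (log2 1.07 ± 0.29, edgeR adjusted p = 0.0340). That call was lost without AfaR replicate 2 (0.72) and without either parental replicate (1.01 and 1.13). In ErlR cells the change was 0.70 ± 0.30 (adjusted p = 0.213), but 1.17 and called with spike-in scaling (adjusted p = 0.0138). In Cal27, BMP2 was 7.92 and 10.8 CPM in parental, 8.11 and 11.2 CPM in AfaR and 5.49 and 4.89 CPM in ErlR libraries. The ErlR libraries were the lowest, with a change of -0.88 ± 0.27 that passed the p-value (adjusted p = 0.0366) but not the fold limit, except without parental replicate 1 (-1.06). Between the lines the ErlR changes of BMP2 differed by 1.56 ± 0.40 (adjusted p = 0.0191). This call was lost without Cal27 ErlR replicate 2 (1.47), Cal27 parental replicate 2 (1.32), FaDu ErlR replicate 2 (1.42) or FaDu parental replicate 1 (1.504).

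BMP7, on chr20:57168748-57266629, encodes a ligand with roles in kidney and epithelium. Its level separated the lines. It was 30.1 and 31.1 CPM in parental FaDu libraries, 26.1 and 29.2 CPM in AfaR and 17.8 and 16.7 CPM in ErlR libraries, and at most 1.34 CPM in any Cal27 library. FaDu parental cells held 24.9 times the level of Cal27 parental cells (Cal27 minus FaDu, log2 -4.64 ± 0.23, edgeR adjusted p = 1.62e-08). Both libraries of every derivative lay below their parental group, in Cal27 AfaR cells at 0.649 and 0.930 CPM against 1.11 and 1.34 CPM. The share of all genes separated in this way was not counted. The AfaR changes were -0.16 ± 0.13 in FaDu (edgeR adjusted p = 0.406) and -0.63 ± 0.50 in Cal27 (adjusted p = 0.344). The ErlR change was -0.84 ± 0.14 in FaDu (adjusted p = 0.0174, under the fold limit), but -0.35 with spike-in scaling (adjusted p = 0.158). In Cal27 it was -1.30 ± 0.53 (adjusted p = 0.0987, from 6 to 23 reads per library), called with all 12 libraries in 1 fit (-1.28).

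INHBA and FST fell in Cal27 AfaR cells, INHBB fell in Cal27 ErlR cells, and INHBA rose in FaDu ErlR cells. INHBA was 98.0 and 155.0 CPM in Cal27 AfaR and 593.9 and 327.8 CPM in Cal27 ErlR libraries, beside the parental values above. The AfaR libraries lay below all other Cal27 libraries, at 5.41-fold lower than parental cells (log2 -2.43 ± 0.30, edgeR adjusted p = 3.16e-04), with -2.79 to -2.14 when 1 library was left out. In ErlR cells the change was -0.59 ± 0.29 (adjusted p = 0.153), although without ErlR replicate 1 it was called (-1.08). In FaDu, where INHBA was 0.631 and 0.946 CPM in AfaR cells, the ErlR libraries held 4.35 and 4.19 CPM (68 and 64 reads). These stood above all other FaDu libraries and far below every Cal27 library. The rise in ErlR cells was 5.36-fold (2.42 ± 0.44, adjusted p = 0.0233) and stayed between 1.94 and 3.11 without any 1 library, but the adjusted p was then 0.0530 to 0.141, so that no such fit called it. The ErlR changes of INHBA differed between the lines by 3.01 ± 0.56 (adjusted p = 0.00358), and the AfaR changes by 2.47 ± 0.68 (adjusted p = 0.0243). The second of these was lost without FaDu AfaR replicate 2 (2.15) and without FaDu parental replicate 1 (1.99).

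INHBB, on chr2:120346143-120351808, encodes the activin B subunit. Cal27 parental libraries held 3.43 and 3.09 CPM of INHBB, AfaR libraries 2.27 and 1.86 CPM, and ErlR libraries 0.192 and 0.428 CPM (3 and 7 reads). The ErlR libraries were the lowest of the line, and INHBB was 10.4-fold lower than in parental cells (log2 -3.38 ± 0.48, edgeR adjusted p = 0.00137), a call kept without any 1 of the 4 libraries (-4.03 to -2.93). In AfaR cells the change was -0.66 ± 0.38 (adjusted p = 0.198). FaDu libraries held 0.196 to 1.92 CPM in the 3 groups, and neither resistant group was called. No other counted gene overlaps INHBB, and INHBA-AS1 (0 to 57 reads) shares no exon base with INHBA.

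FST, on chr5:53480409-53487134, encodes follistatin, and it fell beside INHBA in Cal27 AfaR cells. FST was 310.5 and 191.7 CPM in Cal27 parental, 48.9 and 51.1 CPM in AfaR and 584.3 and 341.6 CPM in ErlR libraries, in 3 ranges that did not overlap. In AfaR cells it was 5.02-fold lower than in parental cells (log2 -2.33 ± 0.28, edgeR adjusted p = 2.74e-04; -2.63 to -1.94 when 1 library was left out). In ErlR cells it was higher by 0.86 ± 0.27 (adjusted p = 0.0400), which is under the fold limit, and was called without ErlR replicate 2 (1.23) or without parental replicate 1 (1.27). The 6 FaDu libraries held 18.0 to 52.3 CPM. Those extremes were both ErlR libraries, and neither FaDu comparison was called. The AfaR changes of FST differed between the lines by 2.30 ± 0.56 (adjusted p = 0.0135), which was lost without FaDu parental replicate 2 (2.08).

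Set against each other per unit length, FST and INHBA were near equal in Cal27 parental and AfaR libraries. This rests on the exon lengths of the counted gene models, 8302 bases for INHBA and 2969 for FST. By mean CPM, INHBA stood above FST in parental (683.8 against 251.1) and AfaR cells (126.5 against 50.0). The ratio of FST to INHBA in RPKM was 1.13 and 0.897 in Cal27 parental, 1.40 and 0.921 in Cal27 AfaR and 2.75 and 2.91 in Cal27 ErlR libraries. Both ErlR libraries lay above all 4 others, while parental and AfaR libraries overlapped although INHBA was 5.41-fold and FST 5.02-fold lower in AfaR cells. In FaDu the ratio ran from 84 to 261 in parental and AfaR libraries, on 10 to 23 INHBA reads. It was 11.6 and 34.9 in FaDu ErlR libraries. With 2 libraries per group an exact permutation test cannot reach p = 0.05, so the ratios are given as a description.

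**Figure D2:**
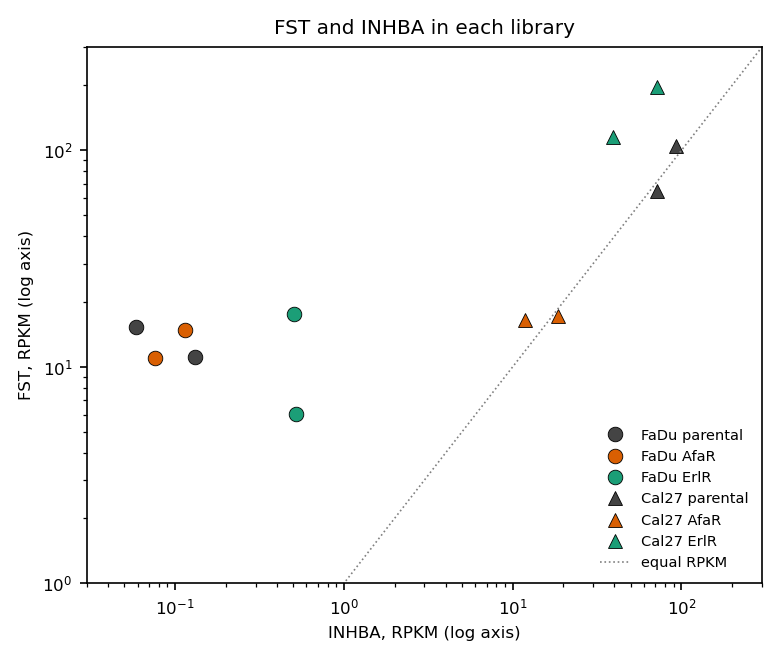
FST against INHBA in RPKM, both on log axes, 1 point per library; circles are FaDu and triangles Cal27 libraries, and the dotted line marks equal RPKM. Cal27 parental and AfaR libraries lie along the line at ratios of 0.897 to 1.40, Cal27 ErlR libraries above it at 2.75 and 2.91, and FaDu libraries far to the left.

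GREM1, on chr15:32717974-32745107, was near absent from these cells. It had 0 and 7 reads in FaDu parental, 1 and 3 in FaDu AfaR, 4 and 5 in FaDu ErlR, 2 and 0 in Cal27 parental, 4 and 4 in Cal27 AfaR and 1 and 1 in Cal27 ErlR libraries. It failed the default filter on low counts in the fits of each line and of all 12 libraries, and no change is given for it. A count of 0 in FaDu parental replicate 1 allows up to 3 counts, or 0.146 CPM, by counting error alone.

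No derivative had all 3 ID genes called. ID1, on chr20:31605283-31606515, is the member most widely used as a readout of BMP signalling. It was 85.4 and 116.0 CPM in parental FaDu libraries, 39.6 and 47.7 CPM in AfaR and 74.2 and 45.7 CPM in ErlR libraries. Both resistant groups lay below the parental one, and the AfaR and ErlR libraries overlapped. In AfaR cells ID1 was 2.34-fold lower (log2 -1.23 ± 0.23, edgeR adjusted p = 0.0105), which was not called without parental replicate 2 (-0.99). In ErlR cells the change was -0.76 ± 0.23 (adjusted p = 0.0944), and -1.15 and called without ErlR replicate 1. Spike-in scaling gave -0.24 for the FaDu ErlR change of ID1 (edgeR adjusted p = 0.442). In Cal27 the parental libraries themselves stood apart, at 29.0 and 76.7 CPM. The AfaR libraries (35.3 and 36.5 CPM) lay between them, and 1 of the ErlR libraries (17.7 and 30.8 CPM) did as well. Accordingly the AfaR change of -0.56 ± 0.39 became 0.31 without parental replicate 2 and -1.10, then called, without parental replicate 1. The ErlR change of -1.15 ± 0.40 (adjusted p = 0.0577) was -0.27 without parental replicate 2 and -0.80 without ErlR replicate 1, but it was called without parental replicate 1 (-1.67) or ErlR replicate 2 (-1.57), with all 12 libraries in 1 fit (-1.12), spike-in scaling (-1.15), no filter (-1.13) or the replicate block (-1.08). DESeq2 did not call it (adjusted p = 0.171).

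ID3, on chr1:23557918-23559794, fell in 2 of the 4 derivatives. It was 10.1 and 14.5 CPM in parental FaDu libraries, 6.06 and 5.51 CPM in AfaR and 8.57 and 12.6 CPM in ErlR libraries. The AfaR libraries were the lowest of the 12 at 2.16-fold lower than parental (log2 -1.11 ± 0.26, edgeR adjusted p = 0.0219). The call was lost without AfaR replicate 2 (-1.04), without either parental replicate (-1.36 and -0.83) and with spike-in scaling (-0.93). In Cal27, ID3 was 30.4 and 26.5 CPM in parental, 37.7 and 37.9 CPM in AfaR and 12.3 and 14.7 CPM in ErlR libraries. Here the AfaR libraries were the highest of the 12 and the ErlR libraries the lowest of the line. The ErlR fall was 2.15-fold (-1.10 ± 0.16, adjusted p = 0.00156). It slipped under the fold limit without ErlR replicate 1 (-0.97) or parental replicate 1 (-0.98), both with adjusted p still under 0.05. In AfaR cells the change was 0.41 ± 0.16 (adjusted p = 0.0643). The AfaR changes of ID3 differed between the lines by -1.50 ± 0.30 (FaDu minus Cal27, adjusted p = 0.00449), a call that was kept in 8 of 8 fits without 1 library.

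ID2, on chr2:8678845-8684453, was the least expressed of the family. It was 0.194 to 1.02 CPM in the 6 FaDu libraries and 0.291 and 0.409 CPM in Cal27 parental libraries (5 and 7 reads). It was 0.702 and 0.550 CPM in Cal27 ErlR and 3.51 and 2.38 CPM in Cal27 AfaR libraries (65 and 41 reads). The Cal27 AfaR libraries were the highest of the 12, at 8.29-fold over parental (log2 3.05 ± 0.49, edgeR adjusted p = 0.00133), and the call was kept without any 1 of the 4 libraries (2.74 to 3.32). Its antisense partner ID2-AS1 shares 38 exon bases with it and had 0 to 4 reads. The interaction with the line was -2.95 ± 0.87 (adjusted p = 0.0334) and was kept without FaDu parental replicate 1 or Cal27 AfaR replicate 2, whereas leaving out any other of the 8 libraries lost it (-3.20 to -1.75). Even at that peak ID2 was low beside its relatives, at 1.34 ± 0.36 RPKM (mean ± SD, n = 2) against 29.1 ± 0.69 RPKM for ID1 and 21.0 ± 0.11 RPKM for ID3 in the same cells.

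**Figure D3:**
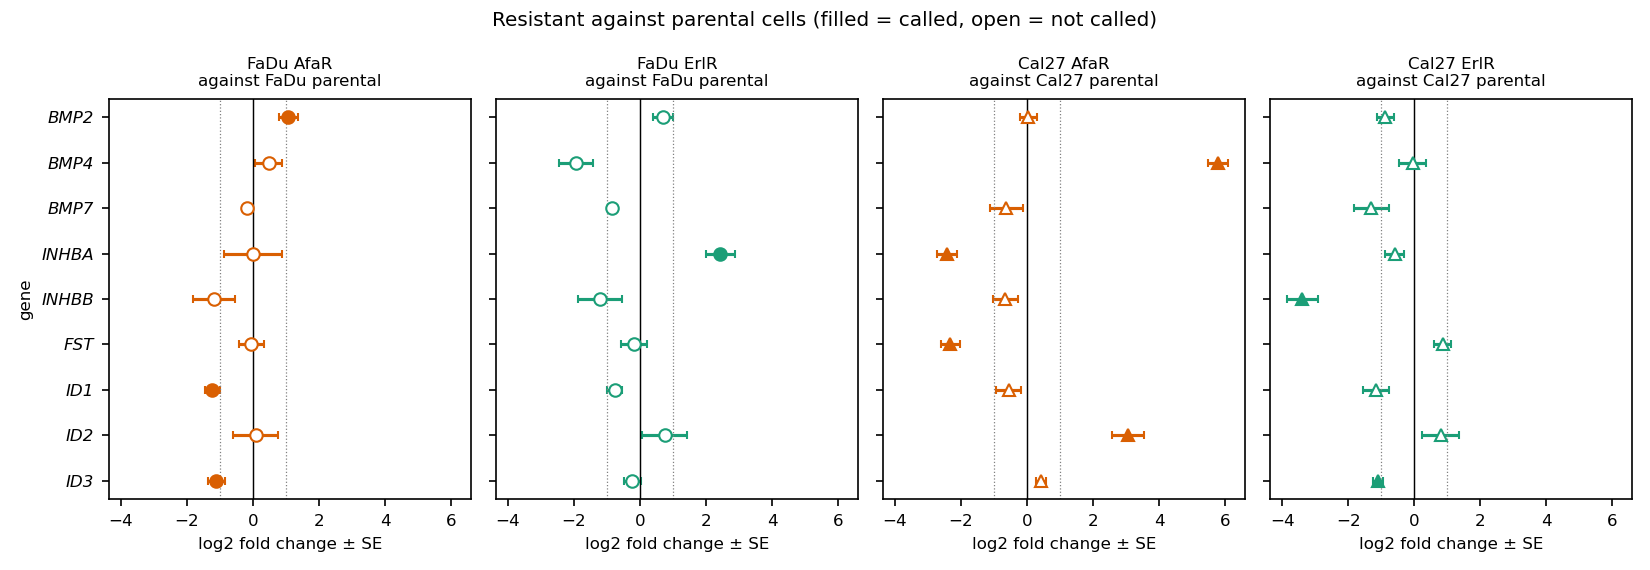
Change of the 9 tested genes in each resistant derivative against its parental line, as log2 fold change with its standard error; filled points are called, open ones not, and dotted lines mark changes of 1 in size. Cal27 AfaR cells hold the largest change (BMP4, 5.79), and FaDu AfaR is the derivative in which both ID1 and ID3 are called lower.

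Directly compared, the 2 derivatives of Cal27 differed in 6 of 9 genes of the set, where 27.1% of all genes were called. AfaR cells held more BMP4 (5.84), INHBB (2.73), ID2 (2.25) and ID3 (1.51) and less FST (-3.19) and INHBA (-1.84) than ErlR cells, all on the log2 scale and with edgeR adjusted p of 0.00304 or lower. In FaDu they differed in 2 of 9 genes, BMP4 (2.41) and INHBA (-2.42), where 5.94% of all genes were called. The BMP4 call in FaDu was lost without AfaR replicate 2 (2.51), ErlR replicate 1 (2.26) or ErlR replicate 2 (2.59).

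Of the other pathway genes, most calls fell in Cal27 AfaR cells, the derivative with the highest share of all genes called. Of 21 listed genes for other antagonists, ligand binders and the proteases that act on them, 12 could be tested there, and 8 rose while none fell by edgeR (median change 1.18), where 11.5% of all genes were called higher and 8.06% lower. Noggin (NOG), which sequesters BMPs, was 1.22 and 0.409 CPM in parental and 6.43 and 5.46 CPM in AfaR libraries (log2 2.86 ± 0.46, edgeR adjusted p = 0.00137). BAMBI, a pseudoreceptor that dampens BMP and activin signals, went from 0.175 and 0.233 to 7.13 and 9.01 CPM (5.26 ± 0.43, adjusted p = 2.95e-05). BMPER, which binds BMPs outside the cell, rose by 3.86 ± 0.44, FSTL3, which like follistatin binds activins, by 1.83 ± 0.14, and TLL1, a protease that cleaves the antagonist chordin, by 1.04 ± 0.28. The 3 others were CHRDL1, FSTL1 and BMP1, a protease related to TLL1, which are named only to complete the count. The list therefore holds genes that act against antagonists as well as antagonists. FSTL3 thus rose where FST fell.

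In the same cells 4 of 12 tested receptors and co-receptors rose and 1 fell, beside the same shares of 11.5% and 8.06% over all genes. TGFBR3, a co-receptor of several ligands of the family, went from 0.116 and 0.0584 to 12.1 and 8.43 CPM (log2 6.76 ± 0.50, edgeR adjusted p = 1.61e-05). The BMP receptor genes BMPR1B (2.42 ± 0.43), ACVR1 (1.35 ± 0.19) and BMPR2 (1.18 ± 0.16) rose, and ACVR1C, a receptor of nodal and activin ligands, fell (-1.89 ± 0.37). Among 8 SMADs 2 rose, the inhibitory SMAD6 (2.70 ± 0.44) and SMAD7 (1.06 ± 0.31), and the other 6 were not called. Of 8 other BMP target genes tested 5 rose: ATOH8, from 0.291 and 0.817 to 16.6 and 14.5 CPM (4.79 ± 0.46, adjusted p = 6.93e-05), MSX2 (2.16 ± 0.50), and SMAD6, SMAD7 and BAMBI, which stand in 2 lists. So BMP4, ID2 and these targets were higher there, while ID1 was not called and the change of ID3 was 0.41. Among the 3 E proteins, the partners of the ID proteins, TCF4 rose (2.10 ± 0.34) and TCF3 and TCF12 were not called.

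These Cal27 AfaR cells, in which 11.5% of all genes were called higher and 8.06% lower, also differed in cell state markers. Of 10 squamous epithelial markers 9 fell (KRT14 at -7.24 and TP63 at -3.41 on the log2 scale). Of 8 tested mesenchymal state markers 5 rose and 1 fell (VIM rose by 5.74, from a mean of 22.4 to 1197 CPM). Of 5 tested fibroblast markers 3 rose (LUM by 8.09). LUM went from a parental mean of 0.117 CPM, under the 0.175 CPM of 3 counts, to 33.6 CPM. Summed over the list, mesenchymal state markers were at 408 to 435 CPM in parental and 1802 to 1834 CPM in AfaR libraries, and fibroblast markers at 30.2 to 41.8 and 315 to 327 CPM. TWIST2 was at 0 in both AfaR libraries, and no fibroblast marker was. None of 2 tested endothelial markers was called or had an unadjusted p under 0.05, and 1 of 3 tested leukocyte markers fell, CD68. The part of these states in the changes of BMP4, INHBA, FST and ID2 was not tested.

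Elsewhere fewer of the listed pathway genes were called than in Cal27 AfaR cells. Over all genes, 3.56% were called higher and 9.92% lower in Cal27 ErlR cells. In Cal27 ErlR cells 3 of 7 other ligands fell: GDF15, a stress-induced ligand, from 39.6 and 72.5 to 5.17 and 8.49 CPM (log2 -3.06 ± 0.32, edgeR adjusted p = 3.45e-04), BMP8B (-1.20 ± 0.35) and BMP5, which went from 22 and 6 reads to 0 in both libraries. No receptor (3 of 12 at an unadjusted p under 0.05) and no antagonist, binder or protease (5 of 12) was called there by edgeR. SMAD7 rose (1.71 ± 0.30), whereas SMAD9, a BMP-branch SMAD, fell (-2.89 ± 0.67) and ATOH8 fell to 2 and 0 reads. Of the marker lists 3 of 10 squamous epithelial markers and 3 of 5 fibroblast markers fell in these cells, as did CDH5 and CD68, and 1 mesenchymal state marker rose and 3 fell. Their part in the falls of INHBB and ID3 was not tested. In Cal27 AfaR cells, with 11.5% of all genes called higher, 2 of 7 other ligands rose, BMP6 and GDF5. Both were at under 25 reads per library.

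In FaDu, 1 of 6 other ligands was called in each derivative, and it was GDF6, a BMP-type ligand, at 1.31 and 1.51 CPM in parental, 5.43 and 5.51 CPM in AfaR (log2 1.94 ± 0.29, edgeR adjusted p = 0.00514) and 3.77 and 4.58 CPM in ErlR libraries (1.55 ± 0.29, adjusted p = 0.0267). GDF6 had 0 reads in all 6 Cal27 libraries. Over all genes, FaDu AfaR cells had 6.48% called higher and 0.954% lower, and FaDu ErlR cells 1.54% and 0.504%. Of 11 tested antagonists, binders and proteases 3 rose in FaDu AfaR cells, CHRDL1, CRIM1 (1.06 ± 0.13) and TLL1 (3.76 ± 0.95). TLL1 went from a parental mean of 0.0779 CPM, under the 0.146 CPM of 3 counts, to 1.12 CPM. None of the 11 was called in FaDu ErlR cells, where 3 of 11 had an unadjusted p under 0.05. Of 12 receptors none was called in FaDu AfaR cells (2 at an unadjusted p under 0.05), and ACVR1 was the one called in FaDu ErlR cells, rising from 11.2 and 8.41 to 19.3 and 22.1 CPM (1.07 ± 0.19, adjusted p = 0.0224). No SMAD, other BMP target gene, E protein, or squamous epithelial, fibroblast, endothelial or leukocyte marker was called in either FaDu derivative by edgeR; in each of these lists at most 4 genes had an unadjusted p under 0.05. Of 9 mesenchymal state markers, TWIST1 and CDH2 rose and SNAI1 fell in FaDu AfaR cells, and none was called in FaDu ErlR cells (3 at an unadjusted p under 0.05). SMAD4, singled out after its values were seen, had 3 to 10 reads in each FaDu library and 95 to 148 in each Cal27 library (Cal27 minus FaDu parental, 3.90 ± 0.40, adjusted p = 5.79e-06).

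**Figure D4:**
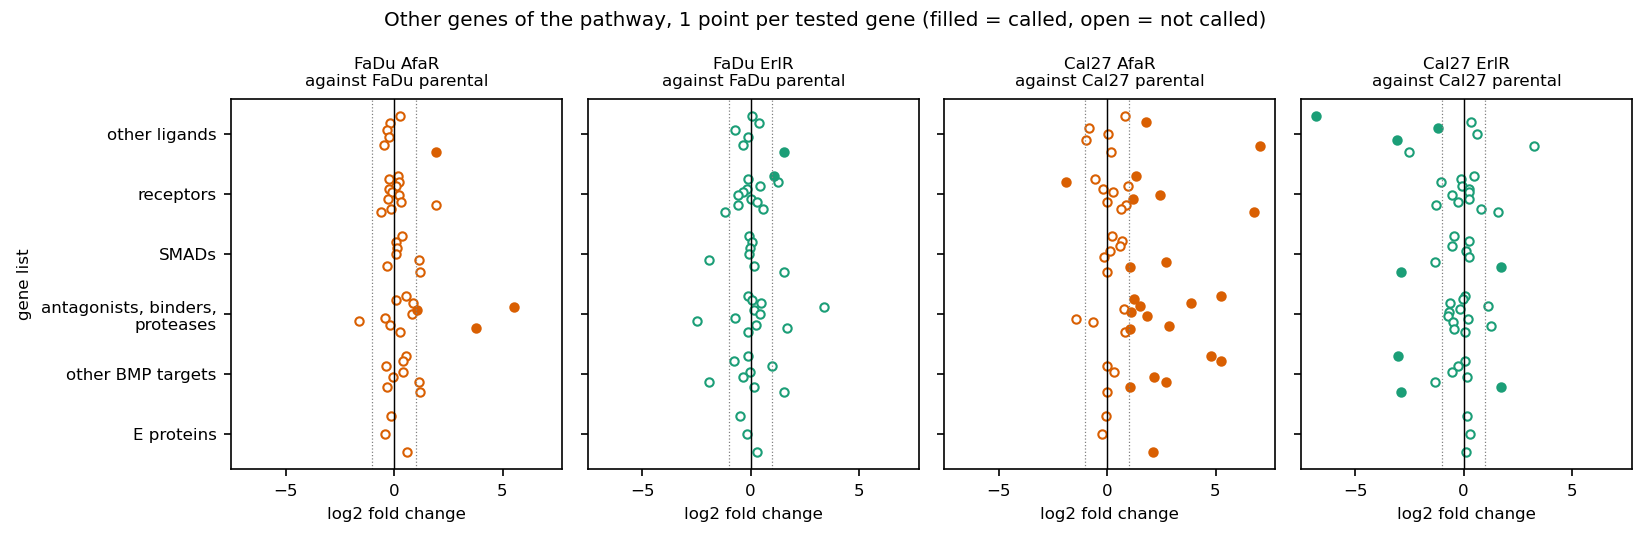
Change of the other listed pathway genes in each derivative against its parental line, as log2 fold change, 1 point per tested gene and gene list; filled points are called and dotted lines mark changes of 1 in size. In Cal27 AfaR cells 8 of 12 antagonists, binders and proteases and 5 of 8 BMP targets are called higher (11.5% of all genes). In FaDu ErlR cells 1 receptor and 1 ligand are (1.54% of all genes).

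Genes with the most similar levels across the 12 libraries were sought among 10551 genes averaging 5 CPM or more, for the 7 genes of the set that reach that mean, thus not for INHBB, GREM1 and ID2. The likest 2, by Pearson's r of log2(CPM + 1), were NR3C2 (0.990) and OLFML2B (0.987) for BMP4, RASIP1 (0.991) and ME2 (0.989) for INHBA, and ADD2 (0.995) and MYH14 (0.993) for BMP7. FST was most like CALML3 (0.970) and SRGAP1 (0.970), BMP2 most like CD82 (0.935) and TCIRG1 (0.934), ID3 most like DGKD (0.971) and CPNE7 (0.955), and ID1 least closely matched, by SNX4 (0.883) and EPB41L1 (0.875). These values describe 12 libraries in 6 groups from 2 lines, so for BMP7 and INHBA they mostly restate the contrast between the lines. BMP4 reached the mean of 5 CPM only through Cal27 AfaR cells (61.7 CPM, against at most 1.59 CPM in any other group). Its matches mostly restate the high level in that group.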

How the data were processed

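Polyadenylated RNA with ERCC spike-in transcripts was sequenced as paired reads from 2 biological replicates of each of 6 groups. Per the submitters' processing notes, the authors trimmed reads with Trimmomatic (0.36), aligned them to GRCh38 with STAR (2.5.2b) and counted them per gene with featureCounts of Subread (1.5.2). The deposited files used here hold raw counts per gene and library. The strand setting of the counting is not given in the sources used here, so reads of antisense partners were checked by exon overlap. The authors' normalized count tables were not used.

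The quasi-likelihood test of edgeR (4.0.16; R 4.3.3) was run on them with TMM factors and the default filter on low counts. The 6 libraries of a line shared 1 fit (3 residual degrees of freedom; 15092 genes in FaDu, 15269 in Cal27). All 12 shared 1 fit (16240 genes) for the parental lines and for the interaction of resistance and line. Called genes had a Benjamini-Hochberg adjusted p under 0.05 over all genes tested and changed by more than 1 on the log2 scale. Spike-ins (3.86 to 5.82% of counts) stayed out of library sizes. Alternatives were DESeq2 (1.42.0), other scalings, filters and thresholds, the replicate number as a block, other sets of libraries and leaving out each library. The scripts were tested on simulated counts.

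The members and lists were chosen with earlier results of these data known. From each other list, genes called in a resistant derivative with a mean of at least 1 CPM were named, up to 5 by size of change; others are named to complete small counts. Patterns alike were ranked over genes averaging 5 CPM or more. Depth limits genes under about 10 reads per library, and intervals and floors cover counting error only.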

Additional observations from a re-analysis of the deposited data

Results flagged for a closer look

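Responses that differed between FaDu and Cal27 cells by the interaction test are gathered here as FaDu change minus Cal27 change on the log2 scale. For afatinib resistance they were BMP4 (-5.30), ID2 (-2.95), ID3 (-1.50), INHBA (2.47) and FST (2.30). For erlotinib resistance they were INHBA (3.01), BMP4 (-1.91) and BMP2 (1.56). BMP4 after erlotinib resistance rests on 4 and 5 reads in the FaDu ErlR libraries and was called in 2 of 8 fits without 1 library and neither with spike-in (-1.44) nor with upper-quartile scaling (-1.85). ID2 after afatinib resistance rests on 4 to 14 reads in the FaDu parental and AfaR libraries and on 5 and 7 in Cal27 parental libraries. It was likewise called in 2 of 8. BMP4 and ID3 after afatinib resistance and INHBA after erlotinib resistance were called in 8 of 8. Groups of 2 libraries are too small to test for a library far from the others.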

How the results depend on the processing

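Of the 138 alternative counts of genes called, 105 stayed within 1.5 times the count reported. In Cal27 AfaR cells the count was 4 under every alternative except with at least 10 counts in every library (3) and without parental replicate 1 (5). DESeq2 gave the reported count in each of the 9 comparisons. Counts in the other comparisons moved as follows, and beyond the settings' own construction the cause was not tested. With glmTreat, which tests against the fold limit itself, the counts were 0 in FaDu AfaR, FaDu ErlR and FaDu AfaR against ErlR, 1 in Cal27 ErlR, 3 between the parental lines and 1 for each interaction. With at least 10 counts in every library, which tests fewer genes, they were 1 in Cal27 ErlR, 1 in FaDu AfaR against ErlR and 3 for the AfaR interaction. FaDu ErlR had 2 with all 12 libraries in 1 fit, spike-in scaling, no filter, no fold limit or unadjusted p. Cal27 ErlR had 4 with all 12 libraries in 1 fit, no fold limit or unadjusted p, and the ErlR interaction had 5 with no filter. Leaving out 1 library gave 0 to 3 in FaDu AfaR, 0 to 1 in FaDu ErlR, 2 to 4 in Cal27 ErlR, 1 to 2 in FaDu AfaR against ErlR, 3 to 5 for the AfaR and 1 to 3 for the ErlR interaction.

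No called gene changed direction. Changes that turned sign were all uncalled. With spike-in scaling, BMP7 (0.019), INHBA (0.18) and FST (0.14) turned positive in FaDu AfaR, FST (0.26) and ID3 (0.23) in FaDu ErlR, and BMP4 (0.56) and ID2 (0.20) between the parental lines, while INHBB (-0.30) and FST (-0.12) turned negative in FaDu AfaR against ErlR and ID2 (0.41) positive in the ErlR interaction. With upper-quartile scaling, INHBA (0.071) and FST (0.027) did in FaDu AfaR. INHBA, at 0.00 there, was also 0.034 with all 12 libraries in 1 fit, 0.034 with at least 10 counts in every library, 0.0062 with no filter, 0.013 with only the 4 libraries compared and 0.0089 with the replicate block. Without 1 library, the FaDu AfaR changes ran from -0.48 to 0.68 for INHBA, -0.28 to 0.19 for FST and -0.59 to 1.28 for ID2, and the FaDu ErlR changes from -1.13 to 0.40 for FST and -0.54 to 0.044 for ID3. In Cal27 they ran from -0.19 to 0.28 for BMP2 and -1.10 to 0.31 for ID1 in AfaR and from -0.41 to 0.41 for BMP4 in ErlR cells, and between the parental lines from -0.47 to 0.31 for BMP4 and -1.05 to 0.81 for ID2. In FaDu AfaR against ErlR they ran from -0.72 to 1.73 for INHBB and -0.44 to 1.08 for FST, and for the ErlR interaction from -0.49 to 0.91 for ID1 and -0.73 to 1.13 for ID2. Ordered by CPM with no length instead of RPKM, 2 to 5 of the 10 genes changed rank within a group, and INHBA came first in Cal27 parental and Cal27 AfaR cells.

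Over all genes, spike-in scaling moved the share of calls that were higher from 75.4% to 96.1% in FaDu ErlR, 60.4% to 84.8% between the parental lines, 74.8% to 37.0% in FaDu AfaR against ErlR and 69.1% to 93.8% for the ErlR interaction. Replicates share numbers across groups, but same-numbered libraries did not deviate together (r from -0.25 to 0.16), so the numbers were taken as names. Spike-in scaling also called ID3 in FaDu AfaR against ErlR (-1.16) and, for the ErlR interaction, ID3 (1.31) and INHBB (2.67). With the replicate block, ID1 in Cal27 ErlR was called (-1.08) and the BMP4 ErlR interaction was not (-1.91, edgeR adjusted p = 0.0547). Depth limits GREM1, and ID2, INHBB and BMP4 where they had under 10 reads.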
